A study of Mus musculus with 6 samples.

Results

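The genes of MHC class I antigen presentation were followed in dental epithelial organoids (DEOs) grown in 4 media, as 10 genes chosen by name among the 47360 gene symbols of the deposited table. They were the heavy chain genes *H2-K1* and *H2-D1*, the light chain gene *B2m*, the peptide loading genes *Tap1*, *Tap2* and *Tapbp*, the immunoproteasome genes *Psmb8*, *Psmb9* and *Psmb10*, and the transactivator gene *Nlrc5*. All 10 were in the table, each as 1 entry. DEOs came from adult dental epithelial stem cells of the incisor apical bud of wild-type female C57BL/6J mice aged 9 weeks, embedded in Matrigel and cultured for 14 days. Every medium contained N-acetylcysteine, the kinase inhibitor Y27632, Wnt3a- and R-spondin1-conditioned media, 100 µg of EGF and 200 µg of Noggin per ml, and this base medium is +N. Dibenzazepine (DBZ), a Notch inhibitor, was added at 10 µM in +ND, the dose in the labels, where the methods text gives the same figure in mM. The medium +NF had FGF10 at 100 µg per ml, and +NFD had both factors. The same study also holds the media +NJ and +NFJ with Jagged1, which were not analysed here. RNA was measured in 1 bulk library per medium, with no statement of whether wells or animals were pooled, so differences between media could not be set against a spread between cultures, and none was tested. In bulk RNA, fewer cells of a type and less RNA per cell cannot be told apart.

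MHC class I molecules sit on the surface of nearly all nucleated cells and show peptides from the cell's own proteins to CD8 T cells. The proteasome cuts proteins into peptides, the TAP transporter carries these into the endoplasmic reticulum, and tapasin (*Tapbp*) holds the transporter and an empty class I molecule together until a peptide is bound. A class I molecule is a heavy chain paired with β2-microglobulin (*B2m*). Interferons raise the transcription of these genes in most tissues, through the IRF factors and through NLRC5, which acts at class I promoters, and they exchange the catalytic proteasome subunits for the immunoproteasome forms.

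The values are FPKM, fragment numbers scaled to transcript length and to the mapped total of the library, so that levels can be compared between genes of different length. Where 4 values stand without their media, they follow the order +N, +NF, +ND, +NFD. Read totals were not given, and relative depth was read from the lowest FPKM values, where 1 fragment is visible as a step. Relative to +N this gave a depth of 0.795 for +ND, 1.04 for +NF and 1.05 for +NFD. *Krt5* and *Krt14*, the keratins of basal epithelial cells, were between 4984 and 12652 FPKM in all 4 libraries, and all 10 epithelial markers reached an FPKM of 1. Of these markers 5 were lower in both media with DBZ, against 15.3% of the 13748 genes that reached this level in any library. Relative to +N, the sum of all 10 was 81.3% in +NF, against 61.1% in +ND and 68.1% in +NFD. This sum rests largely on *Krt14*, at 12652, 8295, 5530 and 6090 FPKM, and *Krt5*. In +ND relative to +N, 6 of the 10 were lower and 4 higher, and in +NFD relative to +NF 7 were lower and 3 higher. *Itgb4* was at 195, 402, 234 and 581 FPKM. The part of these differences in the class I values was not tested. *Nrarp*, a direct Notch target, was at 18.2 FPKM in +N and 9.12 in +NF, against 2.80 in +ND and 2.60 in +NFD. Of 8 Notch target genes, 3 reached an FPKM of 1, and all 3 were lower in both media with DBZ than in both without.

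Class I promoters carry short sequence elements, some of which serve the factors named above, while the κB motif is bound by the κB factors. Those upstream of the most abundant members are shown because these 3 genes were at least 2-fold lower with DBZ, with or without FGF10. The 250 bases before the start site of *B2m* (GRCm38.p6, chr2:122147437-122147686, plus strand) and of *H2-K1* (chr17:34000334-34000583, minus strand) are given 5′ to 3′ from RefSeq. Capitals mark matches to a κB motif (GGG followed by NNTT and NCC), to an IRF motif (GAA, or GAAA, followed by NN and GAAA) and to TGACG, the core of the X2 box, each on either strand.
B2m: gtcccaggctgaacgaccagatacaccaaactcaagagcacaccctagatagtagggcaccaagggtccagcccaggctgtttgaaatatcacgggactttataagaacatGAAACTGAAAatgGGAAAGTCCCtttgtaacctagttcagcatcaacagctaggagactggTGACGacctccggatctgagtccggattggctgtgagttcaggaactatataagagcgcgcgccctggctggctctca
H2-K1: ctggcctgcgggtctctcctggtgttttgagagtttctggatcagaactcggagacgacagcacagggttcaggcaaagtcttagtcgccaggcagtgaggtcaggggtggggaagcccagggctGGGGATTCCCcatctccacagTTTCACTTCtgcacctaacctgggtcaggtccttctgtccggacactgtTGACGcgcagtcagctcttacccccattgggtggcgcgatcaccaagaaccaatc
For *H2-D1*, the 30 bases that begin at its κB motif are given (chr17:35262923-35262952, plus strand), which lie within the gene as the deposited table has it.
H2-D1: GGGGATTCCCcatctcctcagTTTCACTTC
The *H2-D1* stretch was identical to that of *H2-K1* at 29 of 30 bases.

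Promoter windows from 250 bases before to 50 after the RefSeq start site were found for 8 of the 10 genes, all but *Tap2* and *Nlrc5*. The κB motif was in 3 of the 8, against 4.79% of 32851 windows of all genes, and the same 3, *B2m*, *H2-K1* and *H2-D1*, also held an IRF motif. Of all windows, 0.566% held both. TGACG was in 5 of the 8 windows, against 20.8% of all windows. The matches of *Tap1* and *Psmb9* are the same site, in a stretch that both windows share, so these windows are not independent. *Tap1* and *Psmb9* are transcribed in opposite directions from RefSeq start sites 226 bases apart, and their windows share 275 bases. In this shared stretch neither the κB nor the IRF motif was matched, which says only that these letters are not in this window. The motif letters were set after these promoters were seen, and either form of the IRF motif was counted, so these shares are descriptions only.

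All 10 genes were lower in both media with DBZ than in both media without it. Of 13748 genes that reached an FPKM of 1 in any library, 15.3% showed this order. For *B2m*, *H2-K1* and *H2-D1* the higher of the DBZ media was also at least 2-fold below the lower of the other media, which held for 1.49% of those genes. Ratios between media are given as log2((FPKM + 1)/(FPKM + 1)), which understates differences of low genes. They cover genes whose higher FPKM was 1 or more, and genes past a 2-fold ratio were counted. In +ND relative to +N, 8 of the 10 genes were at least 2-fold lower and none was 2-fold higher. Of 13173 genes in this comparison, 5.29% were at least 2-fold lower, 5.88% at least 2-fold higher and 41.8% lower by any amount. In +NFD relative to +NF, a pair with no library in common with the first, 3 of the 10 were at least 2-fold lower, against 2.69% of 13349 genes, and all 10 were lower by any amount, against 42.8%. The median log2 ratio of the 10 genes was -1.35 in the first comparison and -0.82 in the second, beside medians over all genes of 0.10 and 0.048. The FPKM summed over the 10 genes was 2482 in +N and 2289 in +NF, against 680 in +ND and 705 in +NFD. By level the genes stood in the order *B2m*, *H2-D1*, *H2-K1*, *Tapbp*, *Tap1*, *Tap2*, *Psmb10*, *Psmb9*, *Psmb8* and *Nlrc5* in +N and +NF, with *Psmb8* above *Psmb9* in +ND and *Tap2* above *Tap1* in +NFD.

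**Figure D1:**
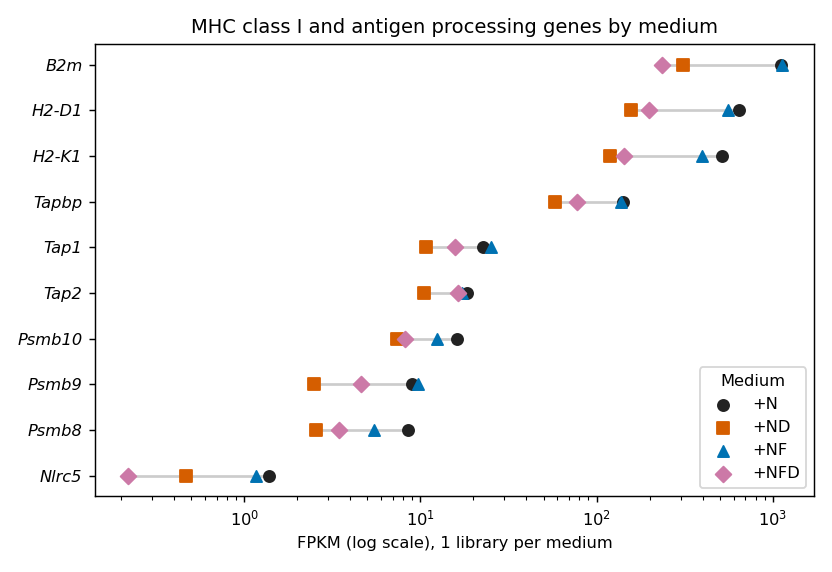
FPKM of each of the 10 genes (rows) on a log axis, with 1 point per medium and 1 library per medium; grey lines join the lowest and the highest value. For every gene the points of +ND and +NFD lie left of those of +N and +NF, with the smallest gap for *Tap2* (16.3 in +NFD and 17.2 in +NF).

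The light chain gene was the most abundant member in every library. *B2m*, on chromosome 2 of GRCm38 from 122147686 to 122153083 with 4 exons, was at 1112 FPKM in +N and 1125 in +NF, against 311 in +ND and 236 in +NFD. The media without DBZ differed little and the lower of them was 3.57-fold above the higher of the media with it. Without a pseudocount, *B2m* in +ND was 0.280 times its level in +N, with a 95% exact interval of 0.272 to 0.288 that covers counting error only, and in +NFD it was 0.210 times its level in +NF (0.204 to 0.216). On the log2 scale these differences were -1.83 and -2.25, and 0.599% of tested genes had a lower ratio than *B2m* in the second comparison. *Patl2*, which overlaps *B2m* on the opposite strand, was listed at 0 in all 4 libraries.

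The classical heavy chain genes were lower with DBZ by similar ratios. *H2-K1* (chromosome 17, 33996017 to 34000333) stood at 512 FPKM in +N and 398 in +NF, against 120 in +ND and 143 in +NFD. *H2-D1* (chromosome 17, 35262730 to 35267499) stood at 641, 558, 157 and 199 FPKM. For both genes +ND was lowest, +NFD was next and the lower of the media without DBZ was 2.77-fold above the higher of the others for *H2-K1* and 2.80-fold for *H2-D1*. The log2 ratio of *H2-K1* was -2.09 in +ND relative to +N and -1.47 in +NFD relative to +NF. That of *H2-D1* was -2.02 and -1.48. In linear terms *H2-K1* in +ND was 0.234 times +N (counting interval 0.226 to 0.241) and *H2-D1* was 0.245 times (0.239 to 0.251). *H2-D1* was above *H2-K1* in every library, by 1.40-fold in +NF, where they differed most. *B2m* was 0.965 times the sum of both heavy chains in +N and 1.18 times in +NF, against 1.12 times in +ND and 0.689 times in +NFD, its lowest value. Class I heavy chains are closely related: 8.79% of the 50-base stretches of the longest coding *H2-K1* transcript and 14.3% of those of *H2-D1* also occur in transcripts of other genes, and how the authors assigned such fragments was not stated.

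The peptide loading genes differed less between media than the chains they serve, by 1.77-fold to 2.45-fold between their highest and lowest library, against 4.08-fold to 4.77-fold for the chains. *Tapbp* (chromosome 17, 33915899 to 33929288) stood at 142 FPKM in +N and 137 in +NF, against 57.9 in +ND and 77.8 in +NFD. Its log2 ratio with DBZ was -1.28 without FGF10 and -0.81 with it. *Zbtb22*, which overlaps *Tapbp* on the same strand, was at 28.4, 21.9, 18.6 and 22.5 FPKM. *Tap1* and *Tap2* encode the subunits of the peptide transporter. *Tap1* (chromosome 17, 34187553 to 34197225) stood at 22.8 FPKM in +N and 25.0 in +NF, against 10.8 in +ND and 15.7 in +NFD, and its log2 ratio with DBZ was -1.02 without FGF10 and -0.64 with it. *Tap2* (chromosome 17, 34203527 to 34216321) stood at 18.5, 17.2, 10.5 and 16.3 FPKM. The value in +NFD stood close to those of the media without DBZ, with a log2 ratio of -0.070 relative to +NF and a counting interval of the linear ratio, 0.887 to 1.02, that includes 1. The ratio of *Tap1* to *Tap2* was 1.23 in +N and 1.45 in +NF, against 1.03 in +ND and 0.960 in +NFD.

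The immunoproteasome genes were low in all media and lowest in +ND. *Psmb8* (chromosome 17, 34197721 to 34201454) stood at 8.48 FPKM in +N and 5.47 in +NF, against 2.56 in +ND and 3.47 in +NFD. *Psmb9* (chromosome 17, 34181988 to 34187764) stood at 9.00, 9.70, 2.49 and 4.60 FPKM. *Psmb10* (chromosome 8, 105935728 to 105938392) stood at 16.1, 12.5, 7.33 and 8.18 FPKM. For each gene the higher of the DBZ media stayed under the lower of the other media, by 1.58-fold for *Psmb8*, 1.96-fold for *Psmb9* and 1.53-fold for *Psmb10*. In +ND relative to +N the log2 ratios were -1.41, -1.52 and -1.04 in that order, and in +NFD relative to +NF they were -0.53, -0.93 and -0.56. The values of *Psmb8* and *Psmb9* in +ND rest on about 90 and 73 fragments. In the deposited coordinates *Psmb9* and *Tap1* overlap by 212 bases on opposite strands, whereas the RefSeq start sites used for the promoter windows lie apart. Since the strand setting was not stated, fragments in such an overlap could have been given to either gene.

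Each immunoproteasome subunit replaces a constitutive catalytic subunit, *Psmb8* that of *Psmb5*, *Psmb9* that of *Psmb6* and *Psmb10* that of *Psmb7*. None of the constitutive genes was lower with DBZ in either pair of media. *Psmb5* was at 175 FPKM in +N and 171 in +NF, against 175 in +ND and 198 in +NFD, *Psmb6* was between 234 and 272, and *Psmb7* was between 126 and 181. The share of a pair's FPKM that comes from the immunoproteasome gene is taken within 1 library and does not depend on scaling. For *Psmb9* this share was 3.70% in +N and 3.87% in +NF, against 0.913% in +ND and 1.66% in +NFD. For *Psmb8* it was 4.62%, 3.10%, 1.44% and 1.72%, and for *Psmb10* 11.3%, 7.67%, 3.89% and 4.99%. Summed over the 3 pairs, the share was 5.90% in +N and 4.69% in +NF, against 1.94% in +ND and 2.53% in +NFD, so that +N stood 3.04-fold above +ND and +NF stood 1.85-fold above +NFD.

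**Figure D2:**
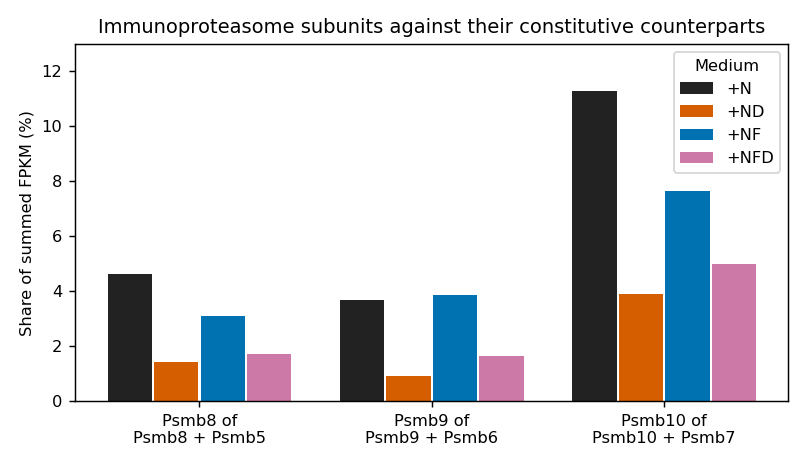
Share of the immunoproteasome gene in the summed FPKM of each pair of subunit genes (bars from 0, in percent), with 1 bar per medium and 1 library per medium. In each pair the bars of +ND and +NFD are the 2 lowest, and *Psmb10* had the largest share, 11.3% in +N.

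*Nlrc5*, the transactivator of class I genes, was the least abundant member in every library. The gene (chromosome 8, 94472763 to 94527272) stood at 1.38 FPKM in +N and 1.17 in +NF, against 0.467 in +ND and 0.219 in +NFD. With its longest coding transcript of 7578 nt these values correspond to about 286, 254, 77 and 48 fragments, far above the limit of 3 fragments. The log2 ratio with DBZ was -0.70 without FGF10 and -0.84 with it, under the 2-fold limit in both. Because its values are near the pseudocount of 1, the choice of pseudocount decided this: without one, the log2 ratios were -1.57 without FGF10 and -2.42 with it, and *Nlrc5* in +NFD was 0.186 times +NF (counting interval 0.134 to 0.256).

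The DBZ ratios were also compared between media with and without FGF10, a difference that could not be tested. For 8 of the 10 genes the log2 ratio with DBZ was closer to 0 in the presence of FGF10, and for *B2m* and *Nlrc5* it was farther from 0. The ratio was also closer to 0 for 66.8% of 13748 genes and for 73.1% of the 2101 genes that were lower in both DBZ media, so this count does not set the 10 genes apart. With FGF10 and no DBZ, values were close to those of +N: in +NF, 7 of the 10 were lower (34.3% of 13090 genes) and 3 were higher, none by 2-fold. Of all genes there, 2.44% were at least 2-fold lower and 2.76% at least 2-fold higher. The median log2 ratio was -0.11, beside 0.12 over all genes, and values ran from -0.55 for *Psmb8* to 0.13 for *Tap1*. The values of *B2m*, at 0.017, and of *Psmb9*, at 0.097, became -0.099 and -0.019 when ratios were centred on the median of all genes. In the presence of DBZ, 9 of the 10 genes passed the filter between +NFD and +ND, of which 8 were higher in +NFD (59.0% of 13293 genes) and *B2m* was lower (41.0%). For 7 of the 10 the FGF10 ratio had opposite signs without and with DBZ, against 44.0% of 13748 genes. None differed by 2-fold, where 3.11% of all genes were at least 2-fold lower and 3.39% at least 2-fold higher. *Psmb9* had the largest ratio, 0.68, and *B2m* the lowest, -0.40. *Nlrc5* was under an FPKM of 1 in both. Set against +N, the combined medium +NFD had 4 of the 10 genes at least 2-fold lower (4.03% of 13358 genes) and all 10 lower (30.9%), with a median log2 ratio of -0.93 beside 0.18 over all genes. The comparisons of +ND, +NF and +NFD with +N share the +N library.

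**Figure D3:**
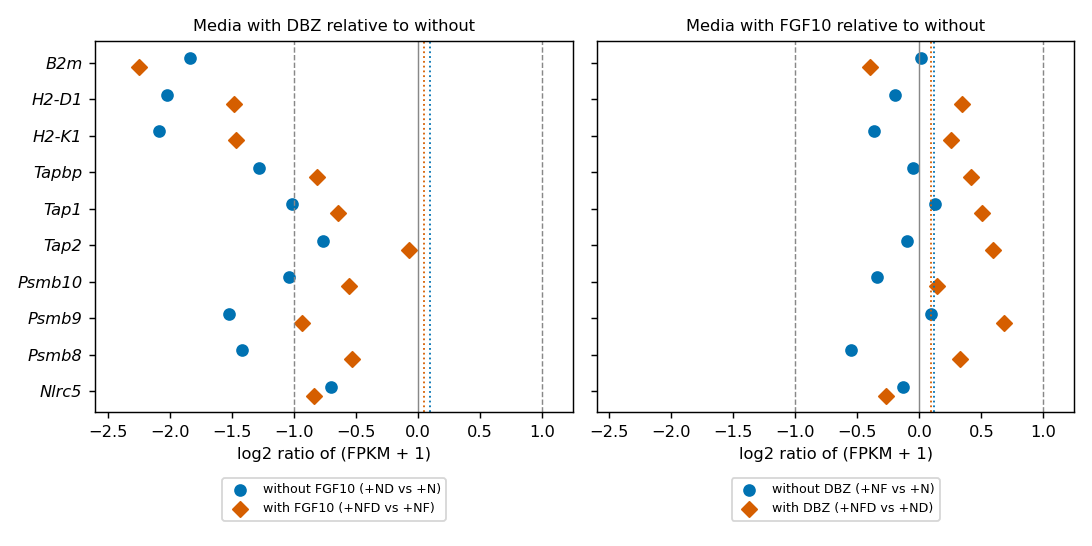
log2 ratios of FPKM + 1 for the 10 genes (rows), with DBZ relative to without it (left) and with FGF10 relative to without it (right); circles and diamonds stand for the pair of media without and with the other factor, dashed lines for 2-fold, and dotted lines for the median of all tested genes. All points in the left panel are below 0, from -0.070 for *Tap2* to -2.25 for *B2m*, and all in the right panel lie within the 2-fold limits.

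Other genes of the pathway were taken as lists. Of 28 further class I heavy chain genes, 25 were in the table and 12 passed the filter in each DBZ comparison. Between +ND and +N, 11 of the 12 were lower with DBZ (41.8% of all genes), 7 of them at least 2-fold (5.29%). The median log2 ratio was -1.12. Between +NFD and +NF, 11 of 12 were lower with DBZ (42.8%), 5 of them at least 2-fold (2.69%), and the median was -0.65. *H2-T23*, the mouse gene of Qa-1, which presents leader peptides of other class I chains to NK cells, was at 214 FPKM in +N and 146 in +NF, against 49.1 in +ND and 59.6 in +NFD. *H2-Q4* was at 52.9, 35.6, 11.6 and 14.4 FPKM. *Mr1*, which presents vitamin B metabolites to MAIT cells, was at 25.9, 28.8, 15.3 and 20.4. The H2-Q and H2-T genes resemble each other and the classical genes, so that fragments may be split between them.

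The general chaperones of peptide loading did not share this order. *Calr* was at 324 FPKM in +N and 381 in +NF, against 355 in +ND and 465 in +NFD, and *Pdia3* at 318, 420, 378 and 415. *Tapbpl*, which encodes a tapasin-related protein, did share it, at 20.5, 17.3, 10.6 and 15.7, as did *Erap1*, at 8.90, 9.54, 8.07 and 5.50. Of the 5 genes of this list, 2 were thus lower in both DBZ media than in both others, against 15.3% of 13748 genes. None of the 5 was 2-fold different in either DBZ comparison, and the median log2 ratios were 0.13 and -0.017. Among 11 other subunits of the 20S proteasome, none was lower in both media with DBZ than in both without, and the median log2 ratios with DBZ were 0.29 without FGF10 and 0.045 with it. Of the proteasome activators, *Psme1* and *Psme2*, which form the interferon-inducible PA28 ring, were lower in both DBZ media. *Psme1* was at 73.6 FPKM in +N and 69.6 in +NF, against 43.1 in +ND and 46.6 in +NFD, and *Psme2* at 102, 87.9, 66.3 and 64.4. *Psme3*, of the nuclear form, was at 50.5, 54.1, 67.4 and 56.9.

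Of 53 interferon response genes that are not among the 10, 41 passed the filter in +ND against +N. All 41 were lower (41.8% of all genes) and 32 were at least 2-fold lower (5.29%), with a median log2 ratio of -1.68. In +NFD against +NF, 40 of 41 were lower (42.8%), 31 at least 2-fold (2.69%), with a median of -1.93. *Isg15*, a ubiquitin-like protein, was at 157 FPKM in +N and 118 in +NF, against 8.87 in +ND and 4.09 in +NFD. Of 22 regulators of class I and interferon genes, 6 were at least 2-fold lower in +ND than +N (5.29%) and 5 in +NFD than +NF (2.69%). The medians of these regulators were -0.11 and -0.0024. The most abundant, *Trim28*, a transcriptional corepressor, was at 73.6, 95.1, 88.0 and 97.2 FPKM, and *Irf3*, which acts in the response to viral nucleic acids, was at 67.8, 61.0, 51.2 and 68.5. Neither was lower in both DBZ media. *Irf7*, which drives type I interferon genes, was at 88.9, 75.8, 9.71 and 7.61 FPKM, and *Irf2* was at 41.4, 41.3, 17.3 and 26.6, both lower with DBZ. *Irf1*, which binds class I promoters, is given outside the rule for naming genes, after its values were seen, and was at 15.3, 14.7, 7.84 and 8.87. *Nfkb1*, of the κB factors, was at 35.5 FPKM in both +N and +NF, against 26.2 in +ND and 29.4 in +NFD, also lower in both DBZ media. Also outside the rule, *Nfkb2* was at 23.2, 21.3, 20.9 and 20.7 FPKM. *Rela*, at 32.3, 28.9, 30.6 and 34.3, and *Relb*, at 26.0, 21.5, 20.0 and 22.4, were higher in +NFD than in +NF. Of the 22 regulators, 9 were lower in both DBZ media than in both others, against 15.3% of 13748 genes. Of 15 interferon and receptor genes 9 passed the filter, of which 1 was at least 2-fold lower in each DBZ comparison (5.29% and 2.69% of all genes). It was *Ifngr1* in both. *Ifngr1*, a chain of the interferon-γ receptor, was at 135 FPKM in +N and 77.3 in +NF, against 35.8 in +ND and 35.3 in +NFD. *Ifng*, *Ifnb1*, *Ifnl2* and *Ifnl3* were listed at 0 in all 4 libraries.

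**Figure D4:**
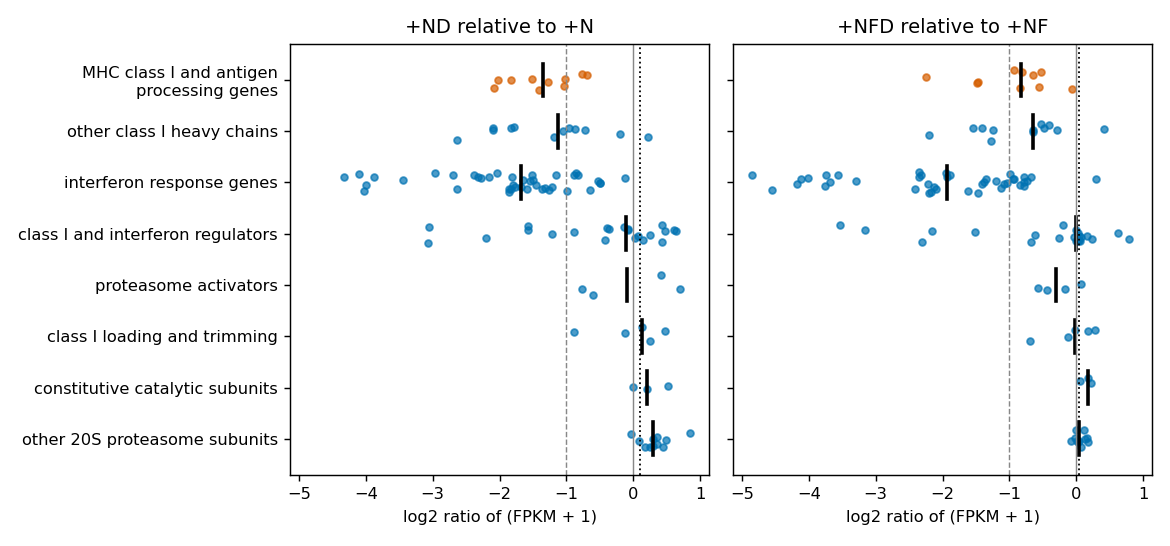
log2 ratios of FPKM + 1 for genes past the filter on low values (points), by gene list, in +ND relative to +N (left) and +NFD relative to +NF (right); black bars are medians of a list, the dashed line marks 2-fold lower and the dotted line the median of all tested genes. The 10 class I and antigen processing genes (top) have medians of -1.35 and -0.82, between those of the interferon response genes (-1.68 and -1.93) and those of the constitutive proteasome subunits (0.21 and 0.17).

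MHC class II genes, which are restricted mainly to antigen-presenting cells and to epithelium under interferon-γ, were mostly low, and 5 of 11 passed the filter. With DBZ, 2 of the 5 were at least 2-fold lower without FGF10 and 0 with it. *H2-Ab1* was at 85.3 FPKM in +N and 50.4 in +NF, against 35.9 in +ND and 39.1 in +NFD, while its partner chain gene *H2-Aa* was at 0.680, 0.0296, 0 and 0. *Cd74*, the invariant chain, was at 5.61, 1.31, 0.441 and 0.867, and *Ciita*, the class II transactivator, did not exceed 0.0218 FPKM.

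Markers of other cells that carry class I molecules were present. Of 30 leukocyte markers, 19 reached an FPKM of 1 in a library and 6 were at 0 in all. Their summed FPKM was 1200.5 in +N and 755 in +NF, against 857 in +ND and 619 in +NFD, of which *Lyz2*, of macrophages and neutrophils, gave 528, 373, 408 and 288. *Ptprc*, which defines leukocytes, was between 0.383 FPKM in +NF and 1.01 in +ND, *Cd3e* of T cells was at 0 in all, and *C1qa* of macrophages was between 34.9 in +NF and 52.0 in +N. The leukocyte sum was thus lower with DBZ in both pairs of media, but it rests largely on *Lyz2* and *S100a9*. *S100a9* was at 333, 129, 141 and 49.3 FPKM. In +NFD relative to +NF, 6 of 18 markers past the filter were lower (42.8% of all genes) and 12 were higher. Their median log2 ratio was 0.29. In +ND relative to +N, 12 of 19 were lower (41.8%) and 7 were higher, with a median of -0.16. Of these markers 3 of 19 were lower in both DBZ media than in both others, against 15.3% of 13748 genes, so this count is near the share of all genes. Fibroblast markers summed to 160 FPKM in +N and 99.5 in +NF, against 137 in +ND and 394 in +NFD, and 9 of 10 reached an FPKM of 1. Of 8 endothelial markers 2 reached an FPKM of 1, and their sum was 8.97 FPKM in +N and 16.7 in +NF, against 17.0 in +ND and 20.3 in +NFD. *Egfl7* gave most of it, with 8.03, 15.7, 15.8 and 18.9, while *Pecam1* and *Cdh5*, which define these cells, were at or under 0.201 FPKM. The part of these cells in the class I values was not tested.

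Among 9669 other genes with a mean FPKM of at least 5, those with the most similar profile over the 4 libraries were sought, by the root mean square difference from the median centred log2 profile of the 10 genes. The 8 nearest were *Lrp1*, *Slc8b1*, *Tor3a*, *Gclc*, *Notch3*, *Marveld3*, *Zmiz1* and *Nab2*, with differences from 0.022 to 0.084. *Lrp1*, an endocytic receptor, was at 45.4 FPKM in +N and 41.6 in +NF, against 17.6 in +ND and 23.1 in +NFD, and *Notch3* at 23.4, 19.7, 7.90 and 11.3. Of the 10 genes themselves, *Tapbp* was nearest to the profile, at 0.021, and *B2m* was farthest, at 0.57, among the 8 that reached a mean FPKM of 5. Ranked by nearness together with the other genes, *B2m* was at place 4143, *H2-K1* at 868 and *H2-D1* at 688. The profile is therefore not that of the most abundant members. A profile over 4 libraries is a description only.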

How the data were processed

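RNA from DEOs in 4 media was sequenced by the authors from TruSeq libraries on an Illumina HiSeq instrument. Reads were checked with FastQC 0.11.9, trimmed with Trim Galore 0.6.5 and aligned to GRCm38 with TopHat2 2.1.1, per the labels, and the authors deposited FPKM values from Cufflinks. Annotation release, strand setting and Cufflinks options are not given in the sources used here. Library size scaling lets a few abundant transcripts lower all other values.

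From the 47493 entries, those with the same symbol were summed (123 symbols). Ratios, filter and 2-fold limit are as in the results. Approximate fragment numbers were taken as FPKM times the longest coding transcript of GENCODE M21 (GRCm38), divided by the value of 1 fragment, which was the median of the lowest peak among 8367 genes with a single transcript of at least 1000 nt: 0.0366 for +N and 0.0351 for +NF, against 0.0461 for +ND and 0.0348 for +NFD, in FPKM times kb. Intervals are exact (Clopper-Pearson) at 95%, conditional on the sum of fragments. The lists were written from general knowledge. The genes and lists were chosen with earlier results of these data known. Named genes were the 10 members, the 5 highest of each list and genes that define a list, and the 8 nearest profiles. *Irf1*, *Nfkb2*, *Rela* and *Relb* were added outside this rule. Promoters came from RefSeq (GRCm38.p6), and the motif letters were set after these sequences were seen. In a simulation of +ND against +N, 200 of 200 genes changed 4-fold among 4459 were recovered and 0 others were called. It held only genes abundant in +N, all of the same length, with counting error alone. Both simulated libraries had the fragment value of +N. Recovery of 4-fold changes at the 2-fold limit was thus nearly certain. The simulation covers neither low genes nor variation between cultures. Alternatives were the highest entry per symbol, centred ratios, scaling to the upper quartile, a pseudocount of 0.1 or none, and a filter of 5 FPKM or none. Scripts ran in Python 3.11.15 with scipy 1.17.1, pandas 2.3.3, matplotlib 3.10.9 and numpy 2.4.6.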

Additional observations from a re-analysis of the deposited data

Results flagged for a closer look

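The ratio of media with FGF10 to media without it had opposite signs in the absence and in the presence of DBZ for 7 of the 10 genes, with 1 library per medium, and the difference was not tested. Of 13748 genes, 44.0% had opposite signs in the same way. On the log2 scale, the ratio with DBZ minus the ratio without it was -0.41 for *B2m*, 0.62 for *H2-K1*, 0.54 for *H2-D1*, 0.70 for *Tap2*, 0.47 for *Tapbp*, 0.88 for *Psmb8* and 0.48 for *Psmb10*. For *B2m* the ratio was 0.017 without DBZ, where its sign changed with the scaling, and -0.40 with it, while the other 6 were lower with FGF10 alone and higher when DBZ was present.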

How the results depend on the processing

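No paired analysis was possible because each medium has 1 library, so that the groups share a single replicate number. With DBZ, all 10 genes stayed below 0 in both comparisons under every alternative that gave a value, but this was fixed in advance. Pseudocount, filter and choice of entry cannot turn the sign of a ratio of genes with 1 entry each. Centring and upper-quartile scaling moved the ratios of both comparisons further down. In +NFD relative to +NF, the number of genes at least 2-fold lower was 5 in place of 3 with a pseudocount of 0.1 and 5 with none, through *Psmb9* and *Nlrc5*, while the share of all genes went from 2.69% to 3.98% and 3.93%. In +NFD relative to +N it was 8 in place of 4 with centred ratios, through *Tapbp*, *Psmb9*, *Psmb10* and *Nlrc5*, where 5.35% of all genes were called. Centring moves every ratio by the median of all genes. The other 71 counts and shares stayed within 1.5 times their value, but part of this was also fixed in advance. The highest entry per symbol could not change a count, because each of the 10 genes has 1 entry. Dropping the filter could not change a count where all 10 had passed it. The immunoproteasome shares were recomputed with the highest entry only. The median of the 10 genes ran from -1.65 to -1.35 in +ND relative to +N and from -0.95 to -0.81 in +NFD relative to +NF over the alternatives. *Nlrc5* passes no filter at an FPKM of 5. Depth limits *Psmb8*, *Psmb9* and *Nlrc5* most, and the variation between cultures is unknown.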
